A study of Mus musculus with 6 samples.

Results

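The Notch signalling genes were followed in femur bone after blood loss: 4 receptors (Notch1, Notch2, Notch3 and Notch4), 4 ligands (Jag1, Jag2, Dll1 and Dll4) and 2 target genes (Hes1 and Hey1). These 10 genes were picked by symbol out of 55421 gene rows of the count table, each symbol matched 1 Ensembl gene, and all 10 were among the 18838 genes tested. RNA came from 3 femur libraries of phlebotomised mice (mice from which blood was drawn) and 3 of control mice. All mice were C57BL/6, 12 weeks old and labelled WT, and the bone was processed to enrich osteocytes, the cells buried in bone matrix. The labels give neither the volume nor the time of the bleed, and do not say that each library was a separate animal. The p-values below therefore reflect library-to-library spread, which may be technical.

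Notch receptors sit in the membrane of one cell and bind Jagged or Delta-like ligands carried by a neighbour. Binding exposes the receptor to cleavage by ADAM proteases and then by gamma-secretase, and the freed intracellular domain joins the DNA-binding protein RBPJ in the nucleus to switch on genes such as Hes1 and Hey1, which encode transcriptional repressors. In bone, Notch signalling is known to restrain osteoblast maturation and to act in osteocytes. In vessels, Notch1, Notch4 and Dll4 act in endothelium and Notch3 in the mural cells around it.

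Libraries were named by treatment and by the number in their column (1, 2 and 4). An initial P was read as phlebotomy and the other initial, N, as control because it is not P, and all comparisons depend on that reading. Gene counts came to 14853290 to 15866385 in phlebotomy libraries and 11219243 to 19015588 in control libraries. Dmp1, an osteocyte matrix protein, was at 11440 to 22230 CPM (counts scaled to library size) in phlebotomy libraries and 18770 to 43050 CPM in controls, so the labelled tissue carried its defining marker. Marrow RNA was present too: S100a9, a neutrophil marker, was at 7744 to 15240 CPM in phlebotomy libraries and 4870 to 12130 CPM in controls. In phlebotomy 1 it lay above Dmp1. Phlebotomy 2 stood apart: it held 3611 counts of the Neo, EGFP and DsRed sequences in the count table, against 0 to 18 in the other 5 libraries, which goes against its WT label. It also lay at -7.80 on the first principal component, which holds 41.8% of the variance. Phlebotomy 1 and 4 lay at 54.9 and 40.2, and controls at -51.4 to -16.6. The Notch genes and the pathway and marker lists are therefore given also without it, which leaves 2 phlebotomy libraries. In bulk bone, fewer cells of a type and less RNA per cell cannot be told apart.

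All 10 Notch genes had a lower mean after phlebotomy, by a median log2 fold change of -0.55, where the median of all genes tested was near 0 (-0.00279) and 50.2% of genes had a value below 0. None of the 10 passed the threshold (Benjamini-Hochberg adjusted p of 0.05 over all genes, quasi-likelihood test of edgeR), where 0.0159% of genes were called higher and 0% lower. In that fit 7 of the 10 had an unadjusted p under 0.05, all lower, beside 9.42% of all genes lower and 7.01% higher at that level. The groups' libraries did not overlap for 7 of the 10, all with phlebotomy below control, where 11.2% of all genes lay so and 10.1% the other way. DESeq2 called 1 of the 10 lower (Jag2), with 1.68% of its genes called lower, and limma-voom called 0, with 7 of the 10 lower at an unadjusted p under 0.05 beside 9.58% of all genes.

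**Figure D1:**
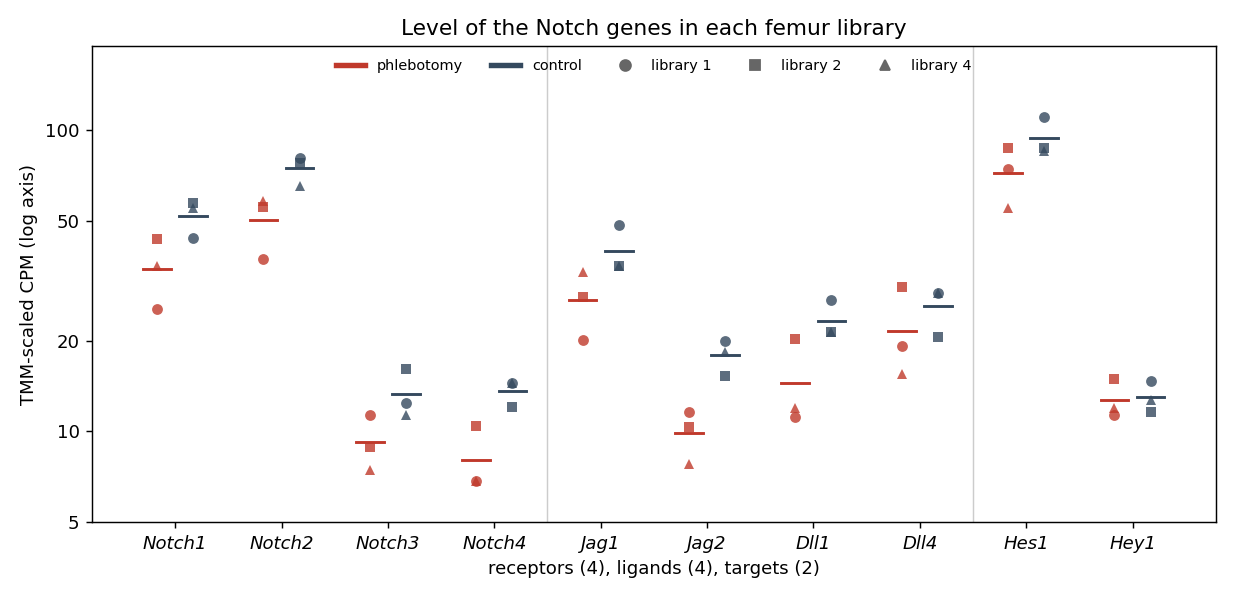
TMM-scaled CPM (log axis) of each Notch gene in the 3 phlebotomy (red) and 3 control (dark) libraries, with marker shapes for library numbers and lines for group means. The 4 receptors, Jag1, Jag2 and Dll1 have all phlebotomy libraries below all controls, while Dll4, Hes1 and Hey1 overlap.

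Per kilobase of transcript, Hes1 had by far the most RNA of the set. Its level was 49.1 CPM per kb in phlebotomy libraries and 64.2 CPM per kb in controls, and in both groups every library of Hes1 lay above every library of the next gene. In phlebotomy libraries the order then ran Dll4 (5.75 CPM per kb), Hey1 (5.26), Jag1 (4.86), Notch2 (4.80), Dll1 (4.04) and Notch1 (3.66), and each neighbouring pair overlapped between libraries. Jag2 (1.94 CPM per kb), Notch4 (1.22) and Notch3 (1.15) closed it, with a gap only between Notch1 and Jag2. In control libraries the 6 genes after Hes1 were Notch2, Jag1, Dll4, Dll1, Notch1 and Hey1, at 7.10 to 5.37 CPM per kb, and again each pair of neighbours overlapped. Jag2 (3.51 CPM per kb), Notch4 (2.07) and Notch3 (1.66) were lowest there too, and only Notch4 and Notch3 overlapped among these. With all annotated exons as the length in place of the principal transcript, Hes1 stayed first in both groups and single genes moved by at most 2 places.

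The 4 receptors are single-pass proteins that differ mainly in where they act. Notch1 and Notch2 dominated: Notch2 made up 40.9% to 49.4% of the summed receptor level per kb in phlebotomy libraries and 39.8% to 47.9% in controls. Notch1 made up 30.9% to 36.4% in phlebotomy libraries and 28.8% to 37.1% in controls. The shares of Notch3 and Notch4 also overlapped between groups, so the makeup of the receptor pool showed no difference larger than its spread. Each of the 4 receptors lay lower in every phlebotomy library than in any control, so their sum could not overlap. The summed receptor level was 8.67, 12.6 and 11.2 CPM per kb in phlebotomy 1, 2 and 4, against 16.1, 17.3 and 15.6 in control 1, 2 and 4.

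Notch4, the receptor best known from endothelium (ENSMUSG00000015468, chromosome 17, 34564268 to 34588503, GRCm38), had the largest difference of the receptors. Notch4 was at 6.83, 10.4 and 6.83 CPM in phlebotomy 1, 2 and 4, against 14.5, 12.0 and 14.4 CPM in control 1, 2 and 4. All phlebotomy libraries lay below all controls, and phlebotomy 2 lay nearest to them. Means were 8.03 ± 2.08 CPM in phlebotomy libraries and 13.7 ± 1.42 CPM in controls (SD, n = 3 each). That is 58.8% of control, a log2 fold change of -0.77 ± 0.23 (SE, edgeR adjusted p 0.178).

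Notch1, which is needed for blood stem cell emergence and T cell fate (ENSMUSG00000026923, chromosome 2, 26457903 to 26516663), was also lower in every phlebotomy library. It was at 25.4, 43.4 and 35.3 CPM in phlebotomy 1, 2 and 4, against 43.9, 57.3 and 54.9 CPM in control 1, 2 and 4. The groups came closest between phlebotomy 2 and control 1. This gave a log2 fold change of -0.59 ± 0.21 (SE, edgeR adjusted p 0.216).

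Notch2, the receptor whose gain-of-function mutations cause a human bone-loss syndrome (ENSMUSG00000027878, chromosome 3, 98013527 to 98150361), was at 37.3, 55.6 and 58.3 CPM in phlebotomy 1, 2 and 4. In control 1, 2 and 4 it was at 80.7, 77.8 and 65.2 CPM. Its log2 fold change was -0.56 ± 0.19 (SE, edgeR adjusted p 0.204), and phlebotomy 1 was the lowest library. Notch3, the mural cell receptor (ENSMUSG00000038146, chromosome 17, 32120820 to 32166852), was at 11.3, 8.86 and 7.46 CPM in phlebotomy 1, 2 and 4. In control 1, 2 and 4 it was at 12.4, 16.1 and 11.4 CPM. Here phlebotomy 1 was the highest of its group and all but touched control 4, and the log2 fold change was -0.53 ± 0.23 (SE, edgeR adjusted p 0.273).

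The receptor values moved when libraries were left out and when the GC and length trend was removed. Without phlebotomy 2, Notch1 (log2 fold change -0.82, edgeR adjusted p 0.0451) and Notch4 (-1.04, 0.0343) passed. In that fit 2.99% of all genes were called lower and 1.75% higher. Notch2 and Notch3 had log2 fold changes of -0.68 and -0.54 there and did not pass. Over 17 alternatives the adjusted p ran from 0.0451 to 0.641 for Notch1 and from 0.0343 to 0.626 for Notch4. Without phlebotomy 1 the log2 fold changes of Notch1 and Notch2 were -0.38 and -0.36. The receptor transcripts are long, from 6591 bases (Notch4) to 10500 bases (Notch2), and 53.6% to 61.2% GC. With the trend of each library with GC content and length removed, the log2 fold changes were -0.35, -0.41, -0.19 and -0.44 for Notch1, Notch2, Notch3 and Notch4.

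**Figure D2:**
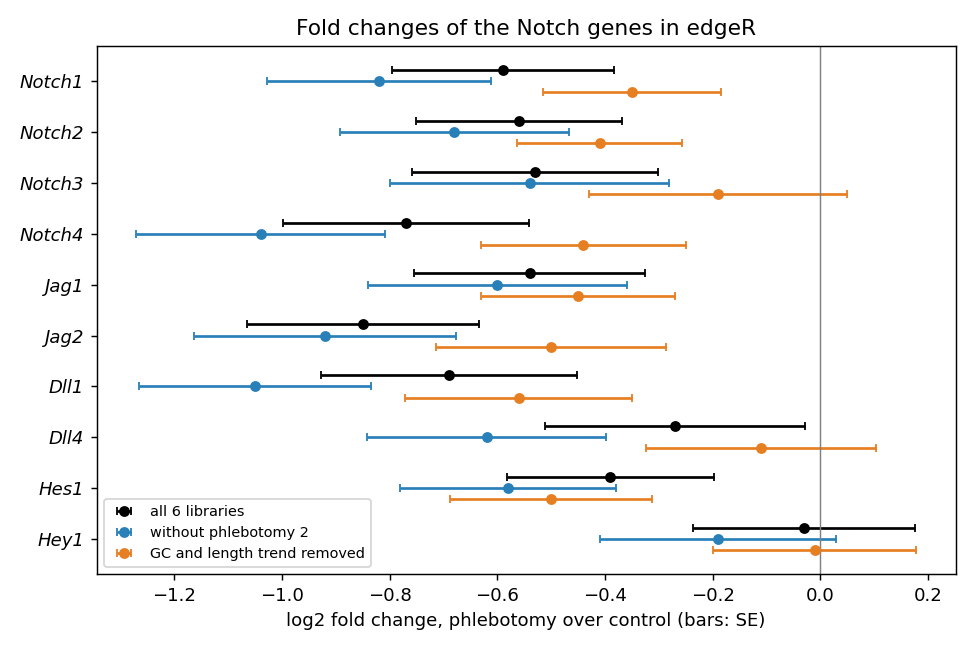
Log2 fold change of each Notch gene, phlebotomy over control, in edgeR with all 6 libraries (black), without phlebotomy 2 (blue) and with the GC and length trend removed (orange); bars are SE. Leaving out phlebotomy 2 moves Notch4 to -1.04 and Dll1 to -1.05, and removing the trend moves Notch3 to -0.19.

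The ligands comprise 2 Jagged and 2 Delta-like genes. Jag2 (ENSMUSG00000002799, chromosome 12, 112907819 to 112929776) had the largest difference of all 10 genes. It was at 11.6, 10.4 and 7.77 CPM in phlebotomy 1, 2 and 4, against 20.02, 15.3 and 18.4 CPM in control 1, 2 and 4. The groups were well apart, and for this gene phlebotomy 2 sat inside its own group. Means were 9.92 ± 1.96 CPM in phlebotomy libraries and 17.9 ± 2.40 CPM in controls (SD, n = 3 each). Jag2 was thus at 55.5% of control, a log2 fold change of -0.85 ± 0.22 (SE, edgeR adjusted p 0.148). Jag2 passed in DESeq2 (adjusted p 0.0305), in edgeR without a low-count filter (0.0223, where 0.884% of genes were called lower) and in edgeR without phlebotomy 2 (0.0495). Over 17 alternatives its adjusted p ran from 0.0223 to 0.613. With the GC and length trend removed its log2 fold change was -0.50, on a transcript of 61.9% GC.

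Jag1, the ligand mutated in human Alagille syndrome (ENSMUSG00000027276, chromosome 2, 137081456 to 137116644), was at 20.1, 28.01 and 33.8 CPM in phlebotomy 1, 2 and 4. In control 1, 2 and 4 it was at 48.4, 35.5 and 35.4 CPM. The groups lay close, with phlebotomy 4 just under control 4, and the log2 fold change was -0.54 ± 0.21 (SE, edgeR adjusted p 0.244). It was -0.60 without phlebotomy 2 and -0.34 without phlebotomy 1, the lowest library.

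Dll1, the ligand that marginal zone B cells depend on (ENSMUSG00000014773, chromosome 17, 15367354 to 15376872), was at 11.1, 20.3 and 11.9 CPM in phlebotomy 1, 2 and 4, against 27.2, 21.3 and 21.4 CPM in control 1, 2 and 4. Phlebotomy 2 lay just under the controls, and phlebotomy 1 and 4 far below them. Over the 3 libraries the log2 fold change was -0.69 ± 0.24 (SE, edgeR adjusted p 0.212). Without phlebotomy 2 it was -1.05 with an adjusted p of 0.0283, and over 17 alternatives the adjusted p ran from 0.0283 to 0.641. The Dll1 exons overlap the long noncoding gene A930024N18Rik on the other strand over 867 bases, 20.5% of their length, and the libraries do not mark strand, so reads of the 2 genes cannot be told apart there. Noncoding genes also overlap exons of Notch1 (1 over 7.5% and 1 over 2.91% of their length), Notch2 (5.02%), Notch3 (6.03%) and Dll4 (5.56%).

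Dll4, the ligand of arterial and sprouting endothelium (ENSMUSG00000027314, chromosome 2, 119325784 to 119335962), overlapped between groups. It was at 19.2, 30.0 and 15.5 CPM in phlebotomy 1, 2 and 4, against 28.8, 20.6 and 28.8 CPM in control 1, 2 and 4. Phlebotomy 2 was the highest of all 6 libraries. Its log2 fold change was -0.27 ± 0.24 (SE, edgeR adjusted p 0.586), and it was -0.62 without phlebotomy 2 and -0.08 without phlebotomy 4. With the GC and length trend removed it was -0.11.

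The balance of ligands did not separate the groups. Jagged over Delta-like level per kb was 0.713, 0.513 and 1.01 in phlebotomy 1, 2 and 4, against 0.821, 0.814 and 0.726 in control 1, 2 and 4. The phlebotomy libraries thus spanned the control range on both sides. The summed ligand level was 14.1, 20.7 and 15.0 CPM per kb in phlebotomy 1, 2 and 4, and 27.8, 20.8 and 23.6 CPM per kb in control 1, 2 and 4, with phlebotomy 2 almost at the level of control 2.

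Both target genes overlapped between groups. Hes1, a repressor induced by Notch and by other signals (ENSMUSG00000022528, chromosome 16, 30064384 to 30067796), was at 74.0, 87.1 and 55.0 CPM in phlebotomy 1, 2 and 4. In control 1, 2 and 4 it was at 110.6, 86.9 and 85.1 CPM. Phlebotomy 1 and 4 lay below every control and phlebotomy 2 inside the control range. Hes1 had a log2 fold change of -0.39 ± 0.19 (SE, edgeR adjusted p 0.333), and it was -0.58 without phlebotomy 2 and -0.23 without phlebotomy 4. With the GC and length trend removed it was -0.50.

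Hey1, a repressor of the same family that is induced by Notch in osteoblasts and endothelium (ENSMUSG00000040289, chromosome 3, 8663359 to 8667256), showed no difference larger than its spread. It was at 11.4, 14.9 and 11.9 CPM in phlebotomy 1, 2 and 4, against 14.7, 11.6 and 12.7 CPM in control 1, 2 and 4. Hey1 had a log2 fold change of -0.03 ± 0.21 (SE, edgeR adjusted p 0.962), and its sign turned positive under 4 of 17 alternatives.

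**Figure D3:**
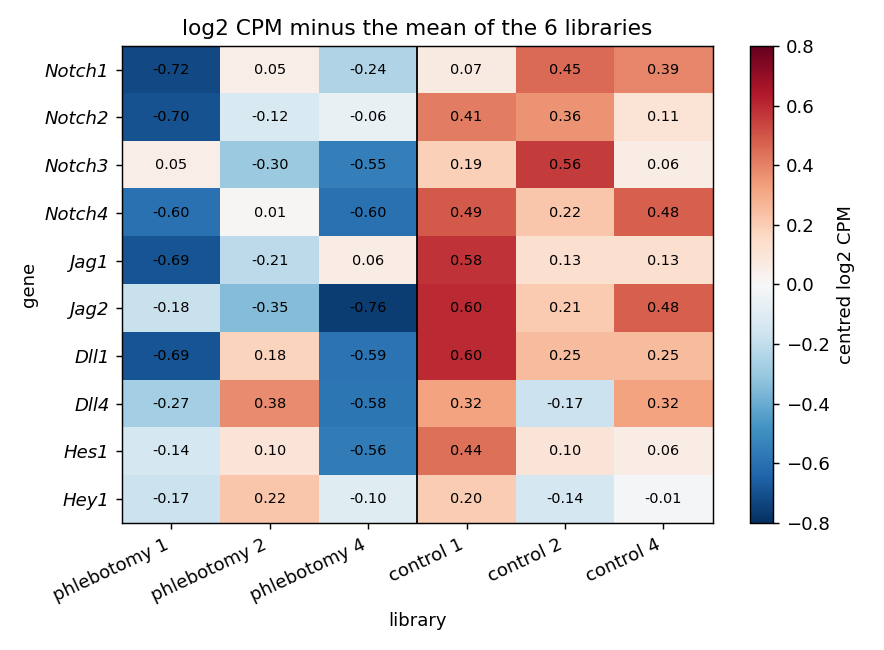
Log2 CPM of each Notch gene in each library minus its mean over the 6 libraries (blue below, red above the mean). Phlebotomy 1 is at or below -0.60 for Notch1, Notch2, Notch4, Jag1 and Dll1, and phlebotomy 4 is lowest for Jag2 (-0.76).

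Library by library, most genes lay below the controls, but the order of the phlebotomy libraries differed between genes. Phlebotomy 1 lay below all controls for 10 of the 10 genes, phlebotomy 4 for 9 and phlebotomy 2 for 7, where 33.3%, 31.6% and 25.4% of all genes tested did so in phlebotomy 1, 4 and 2. Phlebotomy 1 was the lowest of its group for 5 genes and phlebotomy 4 for the other 5, while phlebotomy 2 was the lowest for 0 and the highest for 6. The median centred log2 level of the 10 genes was -0.43, 0.03 and -0.56 in phlebotomy 1, 2 and 4, and 0.43, 0.22 and 0.19 in control 1, 2 and 4.

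Promoter windows from RefSeq (GRCm38.p6) matched 8 of the 10 genes, all but Hes1 and Hey1. The 250 bases before the start were searched on both strands for GTGGGAA, a core sequence bound by RBPJ, and for CACNAG, the N-box bound by Hes proteins. None of the 8 genes held GTGGGAA, which 6.18% of 27025 genes hold. N-box matches were found in Notch1, Notch2, Notch3 and Dll4, a motif that 40.1% of genes hold in such a window. The start is that of RefSeq. The windows of Notch1 and Jag2 and the first of 2 Dll1 windows lay wholly inside the gene as annotated by GENCODE. Those of Notch2, Notch4 and Jag1 lay partly inside it. The Notch1 match is thus inside the annotated gene and not upstream of it. The promoters of Notch4 and Dll4 are shown because these genes of the endothelium had the largest difference among receptors and the smallest among ligands, and that of Notch3 because it held 2 N-box matches. Capitals mark the N-box, and the last base before the start is position -1.
Notch4 (chr17:34564045-34564267, plus strand): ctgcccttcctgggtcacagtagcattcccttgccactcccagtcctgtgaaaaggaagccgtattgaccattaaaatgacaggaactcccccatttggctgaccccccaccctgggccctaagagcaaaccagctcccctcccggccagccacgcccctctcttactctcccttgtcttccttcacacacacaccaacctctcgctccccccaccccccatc
Dll4 (chr2:119325534-119325783, plus strand): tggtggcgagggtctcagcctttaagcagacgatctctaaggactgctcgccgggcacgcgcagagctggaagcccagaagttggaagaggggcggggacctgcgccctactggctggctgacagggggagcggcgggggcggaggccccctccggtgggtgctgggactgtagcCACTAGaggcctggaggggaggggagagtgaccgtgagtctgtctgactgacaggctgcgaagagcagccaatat
Notch3 (chr17:32166891-32167140, minus strand): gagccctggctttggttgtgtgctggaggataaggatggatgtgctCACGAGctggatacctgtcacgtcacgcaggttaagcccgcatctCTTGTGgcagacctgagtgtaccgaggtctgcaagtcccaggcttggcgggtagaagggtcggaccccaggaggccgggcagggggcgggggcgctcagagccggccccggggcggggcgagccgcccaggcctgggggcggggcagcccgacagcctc
The Dll4 match starts at position -75, and those of Notch3 at -204 and -159, the second on the other strand. The GC content of the 250 bases was 58.4% for Notch4, 65.6% for Dll4 and 68.8% for Notch3. The matches describe letters in these windows and say nothing of binding. For Notch4 the bases inside the annotated gene were left off, so that 223 are printed.

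The rest of the pathway was read from a list of 54 genes, of which 49 were tested. Of these 38 had a log2 fold change below 0 and 11 above, with a median of -0.24, and 0 passed over all genes in edgeR. The median was -0.37 without phlebotomy 2, -0.15 without phlebotomy 1 and -0.16 with the GC and length trend removed. At an unadjusted p under 0.05 there were 10 lower and 1 higher (Dtx3l, a partner of Deltex proteins), beside 9.42% of all genes lower and 7.01% higher. The groups did not overlap for 13 with phlebotomy lower and 1 with phlebotomy higher (Neurl1b), beside 11.2% and 10.1% of all genes. DESeq2 called 4 lower, among them Ep300, Maml1 and Spen, beside 1.68% of its genes, and limma-voom 0. Without phlebotomy 2, edgeR called 7 lower, among them Furin, Maml1, Numbl and Tle3, beside 2.99% of all genes, and 1 higher, Dtx3l, beside 1.75%. The ligands Dll3, Dlk1 and Dlk2 and the targets Hes5 and Hes7 were not tested, with 20 to 38 counts each over the 6 libraries.

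Nuclear genes of the pathway act on both sides of the RBPJ switch. Of 8 corepressors that keep RBPJ targets silent, 7 had a log2 fold change below 0 (median -0.31). Of 8 genes of the activating complex 6 were below 0 (median -0.26). Maml1, the Mastermind coactivator that binds the Notch and RBPJ pair, was at 11.4, 13.4 and 9.42 CPM in phlebotomy 1, 2 and 4, against 19.4, 20.6 and 18.3 CPM in control 1, 2 and 4. All phlebotomy libraries, phlebotomy 2 included, lay below all controls (log2 fold change -0.77 ± 0.20 SE, edgeR adjusted p 0.160). Maml1 was at -0.53 with the GC and length trend removed. Rbpj itself had a log2 fold change of -0.28 ± 0.16 (SE, edgeR adjusted p 0.409).

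Genes that act at the membrane were spread more widely. Of 10 receptor cleavage genes 8 were below 0 (median -0.18), with Furin, the protease of the first receptor cut, at -0.68 ± 0.19 (SE, edgeR adjusted p 0.172). The sheddases Adam10 and Adam17 had log2 fold changes of -0.20 and 0.16, and the gamma-secretase gene Ncstn of -0.22. The 5 glycosylation genes had a median of -0.02, with Lfng, the fringe enzyme, also at -0.02 and Rfng at -0.40 ± 0.22 (SE, edgeR adjusted p 0.376). Rfng was at -0.66 without phlebotomy 2, -0.25 without phlebotomy 1 and -0.26 with the GC and length trend removed. Among 5 genes of ligand endocytosis, 4 were below 0, and the ubiquitin ligase Mib2 was at -0.47 ± 0.21 (SE, edgeR adjusted p 0.293). Mib2 was at -0.20 with the GC and length trend removed. Among 9 genes of receptor trafficking, 7 were below 0. Numbl, an inhibitor of Notch related to Numb, was at -0.86 ± 0.29 (SE, edgeR adjusted p 0.211). With the GC and length trend removed, Numbl was at -0.64 and Furin at -0.44.

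Other target genes were sparse apart from Hes6, which had means of 18.75 CPM in phlebotomy libraries and 18.26 CPM in controls. Of the 4 tested 3 were below 0, and Nrarp, a feedback inhibitor of Notch, was at 0.659, 0.912 and 0.569 CPM in phlebotomy 1, 2 and 4, against 1.18, 0.710 and 1.41 CPM in control 1, 2 and 4. The groups overlapped, at a log2 fold change of -0.61 ± 0.47 (SE, edgeR adjusted p 0.534), which was -0.40 without control 4. Hey2, Heyl and Hes6 had log2 fold changes of -0.42, -0.10 and 0.03. No tested target gene, Hes1 and Hey1 included, had groups that did not overlap.

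**Figure D4:**
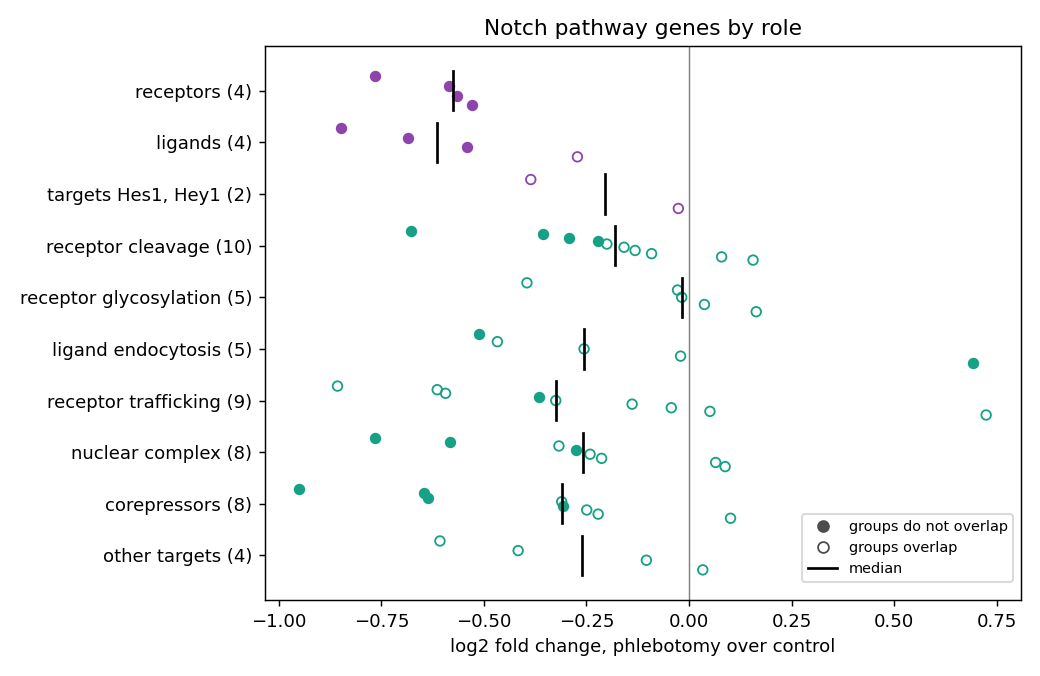
Log2 fold change, phlebotomy over control, of the 10 Notch genes (purple) and 49 further pathway genes (green) by role, with filled points where the libraries of the groups do not overlap and a black line at the median. The medians of receptors (-0.58) and ligands (-0.61) lie below that of every other role.

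Cell type markers also differed between libraries, and their part in the result was not tested. All 8 osteocyte markers were below 0 (median log2 fold change -0.69), with a summed level of 13910 to 25130 CPM in phlebotomy libraries and 22890 to 49060 CPM in controls. All 8 osteoblast markers were below 0 too (median -0.46), at 30110 to 43110 CPM in phlebotomy libraries and 43200 to 66840 CPM in controls. B-lineage markers were below 0 in 5 of 6 (median -0.55), at 134.7 to 191.0 CPM in phlebotomy libraries and 174.7 to 236.6 CPM in controls. T cell markers were below 0 in 6 of 6 (median -0.23), at 11.3 to 12.96 CPM in phlebotomy libraries and 12.9 to 17.8 CPM in controls. Osteoclast markers were above 0 in 6 of 6 (median 0.40), at 1084 to 3009 CPM in phlebotomy libraries and 985.3 to 2185 CPM in controls. With each library left out in turn, their median ran from -0.02 (without phlebotomy 4) to 0.75 (without control 4). Erythroid markers had a median of 0.25 (7984 to 10800 CPM in phlebotomy libraries, 4846 to 11110 CPM in controls), and neutrophil markers of 0.28 (20030 to 34700 CPM in phlebotomy libraries, 13610 to 32490 CPM in controls). The erythroid median ran from -0.05 (without control 1) to 0.44 (without control 4). The neutrophil median ran from -0.05 (without phlebotomy 1) to 0.47 (without control 4). Megakaryocyte markers had a median of -0.02 over 5 of 6 tested, at 672.2 to 1044 CPM in phlebotomy libraries and 574.5 to 1266 CPM in controls. Their median ran from -0.47 (without phlebotomy 2) to 0.41 (without control 4). Library by library, the median centred log2 level of the osteoblast markers was -0.70, 0.24 and -0.39 in phlebotomy 1, 2 and 4, and 0.63, 0.20 and 0.01 in control 1, 2 and 4. As with the Notch genes, phlebotomy 2 was the highest of its group and control 1 the highest of all. The osteocyte markers (-0.65, -0.09 and -0.20 in phlebotomy 1, 2 and 4, against 0.73, 0.32 and 0.01 in control 1, 2 and 4) and the endothelial markers (-0.26, 0.16 and -0.35 in phlebotomy 1, 2 and 4, against 0.27, -0.07 and 0.20 in control 1, 2 and 4) had the same highest libraries. B-lineage, T cell and megakaryocyte markers also had phlebotomy 2 as the highest of its group. For them control 4 was the highest of all (0.45, 0.35 and 0.73). Mural markers were highest in phlebotomy 1 within their group (-0.12) and in control 2 of all (0.34). No marker passed in edgeR with all libraries, and no tested marker was at 0 in any library. At an unadjusted p under 0.05, 7 of 8 osteocyte, 3 of 8 osteoblast, 3 of 6 B-lineage and 2 of 7 mural markers were lower, and 2 of 7 erythroid and 1 of 6 neutrophil markers higher, beside 9.42% of all genes lower and 7.01% higher. Without phlebotomy 2 the medians were -0.78 for osteocyte, -0.84 for osteoblast, -0.51 for endothelial, -0.26 for mural, -0.79 for B-lineage, -0.48 for T cell and -0.47 for megakaryocyte markers. They were 0.29 for erythroid, 0.63 for osteoclast and 0.35 for neutrophil markers. In that fit edgeR called 5 of 8 osteoblast, 2 of 8 osteocyte and 2 of 6 B-lineage markers. It also called 1 of 10 endothelial, 1 of 7 mural and 1 of 6 osteoclast markers. Over all genes, 2.99% were called lower and 1.75% higher there. Some other omissions weakened the lower medians. Without phlebotomy 1 they were -0.23 for osteoblast, -0.15 for endothelial and -0.17 for T cell markers. The osteocyte median was weakest without control 1 (-0.56) and the B-lineage median without phlebotomy 4 (-0.42).

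For the vascular members, endothelial and mural markers were set beside them. Endothelial markers were below 0 in 9 of 10 (median -0.28), with a summed level of 571.2, 718.9 and 567.3 CPM in phlebotomy 1, 2 and 4, against 732.9, 599.4 and 696.8 CPM in control 1, 2 and 4. Notch4 was 1.195%, 1.449% and 1.203% of that sum in phlebotomy 1, 2 and 4, against 1.98%, 2.005% and 2.07% in control 1, 2 and 4. The groups were thus apart also relative to the endothelial sum, which itself overlapped. The share of all genes apart on that scale was not computed. In plain CPM, 11.2% of all genes lay lower without overlap. The Notch4 ratio used CPM with the GC and length trend left in, and no ratio was computed without it. With that trend removed, the log2 fold change of Notch4 itself was -0.44, against -0.77 with it. Whether the ratio reflects RNA per endothelial cell was not tested. A single marker in the sum, Emcn (endomucin, a surface protein of capillary and venous endothelium), did not overlap, at 163.5, 148.6 and 140.2 CPM in phlebotomy 1, 2 and 4, against 134.1, 113.3 and 112.7 CPM in control 1, 2 and 4. Of all genes, 10.1% lay higher without overlap. With Emcn left out of the sum, a choice made after seeing the data, Notch4 was 1.675%, 1.827% and 1.598% of it in phlebotomy 1, 2 and 4, against 2.42%, 2.47% and 2.47% in control 1, 2 and 4, and the groups stayed apart. Dll4 was 3.36%, 4.18% and 2.73% of the sum in phlebotomy 1, 2 and 4, against 3.93%, 3.44% and 4.14% in control 1, 2 and 4, and Notch1 overlapped on that scale as well. Notch3 was 3.39%, 2.97% and 2.04% of the summed mural markers in phlebotomy 1, 2 and 4, against 1.99%, 3.42% and 3.23% in control 1, 2 and 4, so its groups overlapped. The 7 mural markers tested of 8 had a median of -0.14, at 298.6 to 365.4 CPM in phlebotomy libraries and 352.2 to 623.3 CPM in controls. That median ran from -0.31 (without control 4) to 0.0 (without control 2). Within the mural sum, Cspg4 was at 74.6, 124.0 and 128.8 CPM in phlebotomy 1, 2 and 4. In control 1, 2 and 4 it was at 332.3, 268.1 and 175.7 CPM, a log2 fold change of -1.24. Pdgfrb was at -0.67, Acta2, Myh11, Mcam and Cnn1 at -0.16 to -0.001, and Rgs5 at 0.22. The Notch3 ratio without Cspg4 was not computed.

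**Figure D5:**
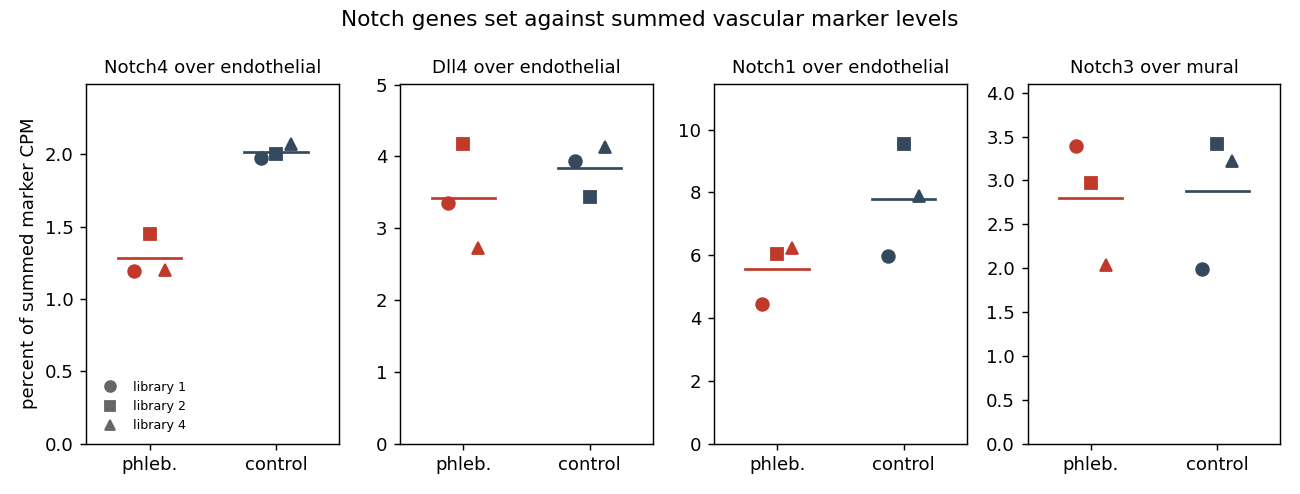
Level of Notch4, Dll4 and Notch1 as a percent of the summed CPM of 10 endothelial markers, and of Notch3 as a percent of 7 mural markers, in each phlebotomy (red) and control (dark) library, with lines for means. Notch4 alone of the 4 has groups that do not overlap, at 1.195% to 1.449% after phlebotomy and 1.98% to 2.07% in controls. The GC and length trend was not removed from these levels, and the share of all genes apart on this scale was not computed.

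The genes most like the receptor, ligand and target with the highest level per kb over all 6 libraries (Notch2, Dll4 and Hes1) were sought by the root mean square difference of centred log2 CPM over the 6 libraries, among 10281 protein-coding genes. Nearest to Notch2 were Tsc1 (0.048), Taf1a (0.050) and Stau1 (0.057). Nearest to Dll4 were Flt1 (0.052), a receptor of vascular endothelial growth factor and one of the endothelial markers above, Snrk (0.060) and Lratd2 (0.082). Nearest to Hes1 were Cd2 (0.033), Sowahc (0.049) and Sox4 (0.052). With 6 libraries and this many genes, close matches are a description of these libraries alone.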

How the data were processed

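Libraries were made with Nextera XT, which does not mark strand, and read as 126 bp pairs, per the labels' protocols. The submitters' processing notes name STAR 2.7.3a and 2.5.2a, DESeq2, edgeR and limma, and GRCm38.p3 and mm10. How reads were counted, and with which strand setting, is not stated in the labels or headers. The authors deposited raw counts, filtered counts and a signal table of CPM adjusted with TMM, per the file's name. The 19 rows with vector or transgene names, 0.00278% to 0.0285% of each library's counts, were left out. No 2 libraries of a group agreed within sampling noise.

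Counts were filtered with filterByExpr (minimum count 10), scaled with TMM and tested with edgeR 4.0.16 in R 4.3.3 (quasi-likelihood, robust, no covariates), with Benjamini-Hochberg adjustment over all 18838 genes. Each SE is the log2 fold change divided by the root of F. CPM in the text are scaled with TMM, and per kb uses the GENCODE M21 principal transcript. On simulated counts of 18351 genes, 63% of 100 genes changed 2-fold and 100% of 100 changed 4-fold were recovered, with 16 false calls among 179. The changed genes were drawn from those of higher mean CPM, and no library was made to stand apart as phlebotomy 2 does. Changes under 2-fold, the size seen for all Notch genes, were not simulated. Alternatives used limma 3.58.1 and DESeq2 1.42.0. Named pathway genes are those with the smallest p per role, plus a few chosen after their values were seen (Dtx3l, Neurl1b, Ep300, Spen, Tle3, Rbpj, Adam10, Adam17, Ncstn, Lfng, Hey2, Heyl, Hes6). Single values of some pathway genes are not reported here. Genes and lists were chosen with earlier results of these data known.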

Additional observations from a re-analysis of the deposited data

How the results depend on the processing

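Of the 10 Notch genes, 9 kept a negative log2 fold change under all 17 alternatives. Hey1 turned positive with upper-quartile scaling (0.06) and without control 1 (0.06), phlebotomy 1 (0.07) or phlebotomy 4 (0.02), with a range of -0.19 to 0.07 over the libraries left out in turn. The median of the 10 ran from -0.65 to -0.38. The count of Notch genes called lower was 0 in edgeR, 1 without a low-count filter, 1 in DESeq2 and 0 to 4 with a library left out, the 4 being without phlebotomy 2; none was called higher. Further pathway genes called lower numbered 3 without a low-count filter, 4 in DESeq2 and 0 to 7 with a library left out, and those called higher 0 to 1. Over all genes, 3 higher and 0 lower became 78 and 206 in DESeq2, 166 and 411 when no filter was applied, 6 and 14 with the filter of the authors, 0 and 0 in limma-voom, and 0 to 356 higher and 0 to 607 lower with a library left out (both highest without phlebotomy 2). There were 0 of both without phlebotomy 1, 12 and 2 without control 2, 5 and 2 without control 4, 2 and 1 without control 1, and 4 and 0 without phlebotomy 4. The cause was not tested. Same-numbered libraries did not deviate together (r -0.11 to -0.0616), so the numbers were not taken as pairs; with the replicate block the count was 3 higher and 0 lower, and the Notch genes called stayed at 0. The median of all genes moved to 0.181 without a filter and 0.0824 with upper-quartile scaling. Leaving out a library leaves 2 in its group. Among the members, the fewest counts in a library were 108 (Notch4).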
